A study of Mus musculus with 14 samples.

Results

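The subject is 10 mouse liver genes of fatty acid and triglyceride synthesis: Srebf1, Acly, Acaca, Acacb, Fasn, Me1, Thrsp, Elovl6, Scd1 and Gpam. They were taken by symbol as a list of lipogenic genes, with no measured value as a criterion. The list was, however, chosen with earlier results of these data known. All 10 of 10 were found among the 24411 genes of the count files, and all 10 passed the filter on low counts that left 9644 genes to test. Liver RNA was sequenced in 14 libraries, of which 13 samples remained after near-duplicate libraries were summed. The mice were male littermates aged 5 to 7 months. Both genotypes were Rbbp5 (flox/flox): WT mice were Alb-CRE (-/-) and mice with the liver knockout (LKO) were Alb-CRE (+/-). Rbbp5 is a shared subunit of the complexes that methylate lysine 4 of histone H3. Alb-Cre is driven by the albumin promoter, so cells of an LKO liver in which that promoter was never active keep the floxed gene intact. Each genotype received either an intraperitoneal dose of 0.05 mg/kg tunicamycin, in 500 µl of PBS with 3% DMSO, or that solvent alone as vehicle. Tunicamycin blocks N-linked glycosylation and so stresses the endoplasmic reticulum (ER). Injections fell between 9 and 10 in the morning, and the livers were removed after 8 h. There were 3 libraries in each WT group and 4 in each LKO group. The labels number the replicates but do not say that each is a separate animal, so p-values measure the spread between these samples, which may in part be technical.

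In the liver, carbohydrate carbon leaves the mitochondrion as citrate and is built into fatty acids, which are esterified to glycerol and stored or exported as triglyceride. SREBP-1c, a product of Srebf1, is a transcription factor that is made as a membrane protein of the ER, is cut in the Golgi and then activates lipogenic genes in the fed, insulin-stimulated state. The carbohydrate-responsive factor ChREBP, encoded by Mlxipl, acts on many of the same genes.

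Sense-strand reads on genes ranged from 6507018 to 13519421 per library, and from 1704479 to 3551398 without the ribosomal gene Rn45s, which held 72.5 to 75.5% of them. Libraries 3 and 4 of the LKO vehicle group agreed nearly within sampling noise, and their reads were summed into 1 sample. Rbbp5, the targeted gene, was at 4.07 to 6.40 CPM (counts scaled to library size) in the 6 WT samples and at 1.90 to 4.14 CPM in the 7 LKO samples. Averaged over treatments it was lower in LKO, with a log2 fold change of −0.89 ± 0.18 (SE; adjusted p = 0.0181), a call that was lost without WT vehicle 2 and, at −0.256, with unfiltered log2(FPKM + 1). WT tunicamycin samples differed in the ER stress response itself. Hspa5, which encodes the ER chaperone BiP, was at 196 to 252 CPM with vehicle and at 853, 313 and 784 CPM in WT tunicamycin samples 1, 2 and 3. Ddit3, which encodes the stress factor CHOP, was at 26.2, 1.30 and 20.3 CPM in the same samples, against 0.640 to 1.89 CPM with vehicle. Among the WT tunicamycin samples, sample 2 thus stood apart from the others by these markers. Sample 3 stood apart by the lipogenic genes, as described below. In LKO, Hspa5 was at 116 to 173 CPM with vehicle and at 142 to 228 CPM after tunicamycin. Ddit3 in LKO was at 0.437 to 0.829 CPM and at 0.390 to 2.03 CPM, from 3 to 20 reads a sample. After tunicamycin, Hspa5 was called lower in LKO than in WT by edgeR, at −1.78 ± 0.27 (adjusted p = 0.0103). Ddit3 was also called lower, at −4.02 ± 0.66 (adjusted p = 0.0149). Results are given with all samples, and calls without WT tunicamycin sample 3 are given in each comparison. Without WT tunicamycin sample 2 alone, only numbers of calls, changes of sign and ranges over left-out samples are given.

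The genes of the list map to 6 chromosomes of mm10, and Srebf1 (11:60199089-60220604), Acaca (11:84195438-84401651), Acly (11:100476352-100528000) and Fasn (11:120805958-120824547) lie on the same chromosome. The promoters of 9 of the 10 genes were found in RefSeq (GRCm38.p6), with 13 windows of 250 bases before a start site. CCAAT, read on both strands, is the motif bound by NF-Y, a factor that acts beside SREBP at many lipogenic promoters. It was present in 7 of the 13 windows, which belong to 6 genes (Srebf1, Acacb, Fasn, Me1, Thrsp and Gpam), and in 33.8% of all 32851 RefSeq windows of that length. The sterol regulatory element TCACNCCAC was in 0 of the 13 windows and in 1.05% of all windows, and the E-box CACGTG was in 0 of 13 and in 6.02%. The general E-box CANNTG, which includes CACGTG, was in 7 of 13 and in 66.2%. These are matches of letters in a short window and show no binding. Promoters of Fasn, Thrsp and Acacb are shown because theirs are the windows with CCAAT that end within 40 bases of the annotated gene start. CCAAT and its reverse complement ATTGG are in capitals. The windows are chr11:120824548-120824797 on the minus strand for Fasn, chr7:97417551-97417800 on the minus strand for Thrsp, and chr5:114165268-114165517 on the plus strand for Acacb. The Thrsp window ends 40 bases from the gene start in the GENCODE annotation, and the other windows end at it.
Fasn: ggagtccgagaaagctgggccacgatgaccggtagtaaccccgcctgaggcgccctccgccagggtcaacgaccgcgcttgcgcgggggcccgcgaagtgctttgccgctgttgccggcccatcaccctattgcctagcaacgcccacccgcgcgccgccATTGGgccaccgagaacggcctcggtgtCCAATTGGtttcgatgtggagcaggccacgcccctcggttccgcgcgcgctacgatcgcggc
Thrsp: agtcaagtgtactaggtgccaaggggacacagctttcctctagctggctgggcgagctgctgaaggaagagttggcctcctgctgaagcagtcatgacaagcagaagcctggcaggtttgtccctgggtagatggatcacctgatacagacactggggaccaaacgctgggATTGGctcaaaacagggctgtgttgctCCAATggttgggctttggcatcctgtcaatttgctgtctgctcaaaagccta
Acacb: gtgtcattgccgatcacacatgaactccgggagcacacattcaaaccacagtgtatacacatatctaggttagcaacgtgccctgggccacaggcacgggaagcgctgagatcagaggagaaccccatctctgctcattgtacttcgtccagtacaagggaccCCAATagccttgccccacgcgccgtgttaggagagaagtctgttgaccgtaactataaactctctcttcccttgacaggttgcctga
Fasn holds 3 matches, which start 90, 62 and 59 bases before its start, and the last of these overlap in CCAATTGG. Thrsp holds 2 matches, at 79 and 52 bases, and Acacb holds 1, at 87 bases.

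Levels were compared between genes per transcript length, as FPKM, in the WT vehicle group. Scd1, the desaturase that introduces the double bond of oleate and palmitoleate, was the most abundant at 166 ± 68.0 FPKM (SD, n = 3). Thrsp, a small nuclear protein also called Spot 14 that promotes lipogenesis, followed at 32.3 ± 7.12 FPKM. Me1, the cytosolic malic enzyme that yields NADPH, was at 9.92 ± 2.33 FPKM. No sample of these genes overlapped a neighbour in this order. Gpam, which encodes the mitochondrial acyltransferase that starts glycerolipid synthesis, was at 4.50 ± 0.224 FPKM. Its range overlapped that of Acly, the ATP-citrate lyase, at 4.30 ± 0.161 FPKM. Elovl6, which elongates palmitate to stearate, at 3.59 ± 0.402 FPKM overlapped Fasn, the fatty acid synthase, at 3.35 ± 0.370 FPKM. Srebf1 was at 2.85 ± 0.122 FPKM, Acaca, the cytosolic acetyl-CoA carboxylase, at 1.84 ± 0.212 FPKM, and Acacb, its mitochondria-associated counterpart, at 0.788 ± 0.135 FPKM. The last pair did not overlap with each other or with Srebf1. Scd1 and Acacb kept the highest and the lowest group mean in each of the 4 groups. In WT tunicamycin the order in between was blurred: each neighbouring pair from Scd1 down to Acaca overlapped.

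In WT mice, tunicamycin samples 1 and 2 had low values of the whole list and sample 3 did not. Each of the 10 genes was below all 3 WT vehicle samples in tunicamycin sample 1, and also in sample 2. Over all genes tested the shares below vehicle in these samples were 31.9% and 32.4%. In sample 3, 4 of 10 genes were below every vehicle sample (Srebf1, Acly, Acacb and Gpam), against 28.4% of all genes, and Elovl6 was above every vehicle sample, as for 30% of all genes. Over the 10 genes, the median level relative to the WT vehicle mean was 50.9%, 54.9% and 91.0% in samples 1, 2 and 3. Of these 3 samples, sample 2 had the lowest Hspa5 and Ddit3. How the stress markers relate to the lipogenic values was not tested.

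**Figure D1:**
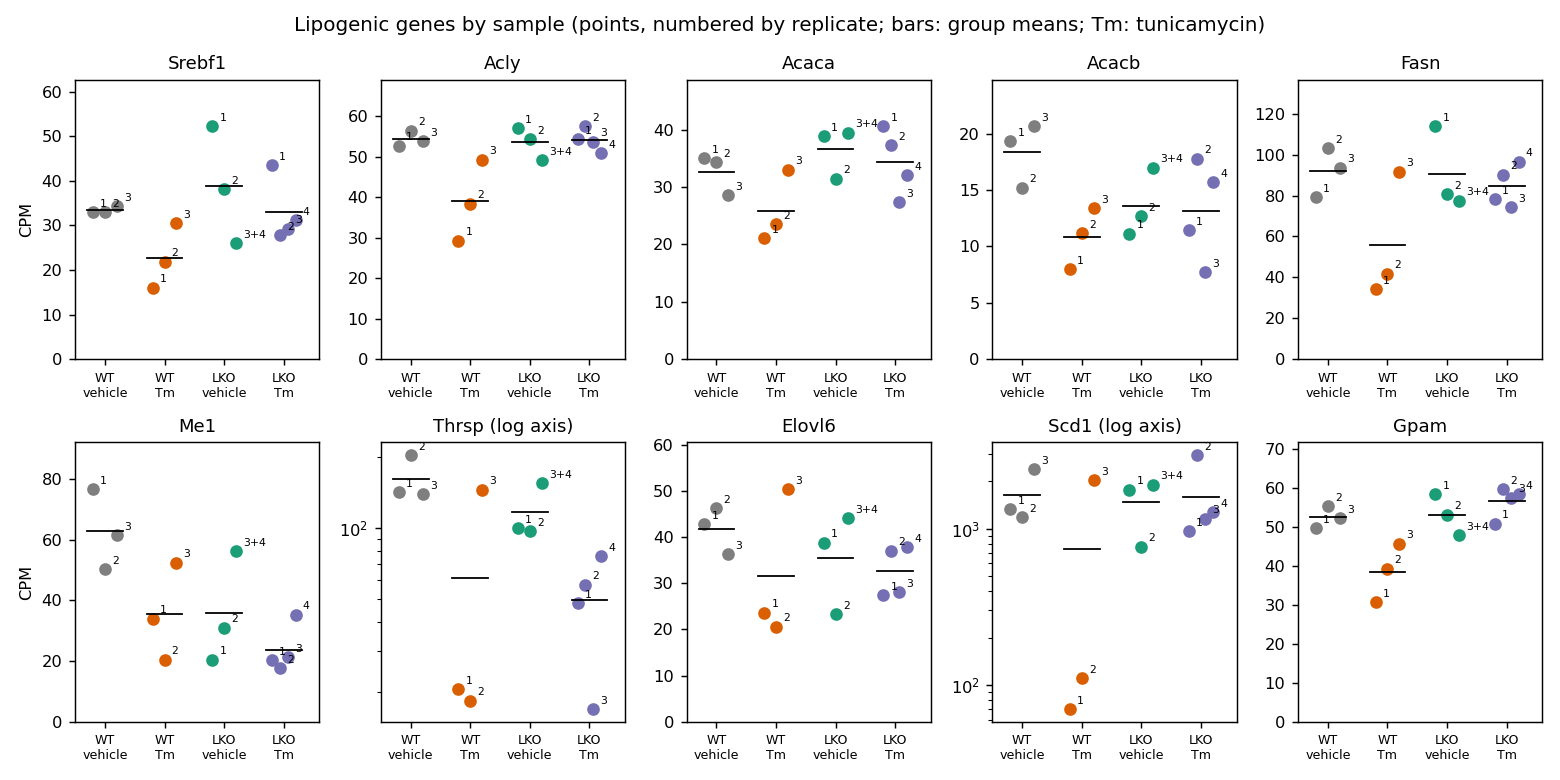
CPM of the 10 genes in each of the 13 samples, by group, with group means as bars; Scd1 and Thrsp are on a log axis and the others start at 0. Scd1 was at 70.3 and 110.6 CPM in WT tunicamycin samples 1 and 2 and at 2042 CPM in sample 3, while LKO tunicamycin samples sit between 959 and 2946 CPM.

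Scd1 showed the widest split. It was at 1329, 1179.9 and 2387 CPM in WT vehicle samples 1 to 3, and at 70.3, 110.6 and 2042 CPM in WT tunicamycin samples 1 to 3. Samples 1 and 2 were at 4.31% and 6.78% of the vehicle mean, or 23.2-fold and 14.8-fold below it, and sample 3 was at 125%. The groups overlapped because of sample 3 alone.

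Thrsp followed the same pattern. It was at 141.7, 204 and 139 CPM with vehicle and at 20.6, 18.5 and 145 CPM after tunicamycin. Samples 1 and 2 were at 12.7% and 11.4% of the vehicle mean, and sample 3 lay between the vehicle samples.

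Among the enzymes of the core pathway, Fasn was at 79.1, 103 and 93.6 CPM with vehicle and at 34.1, 41.8 and 91.7 CPM after tunicamycin. The first of these tunicamycin samples held 37.0% and the second 45.4% of the vehicle mean. Acly was at 52.7, 56.4 and 53.9 CPM with vehicle and at 29.3, 38.4 and 49.3 CPM after tunicamycin, so that the groups did not overlap. Acaca was at 35.0, 34.3 and 28.5 CPM with vehicle and at 21.0, 23.5 and 33.0 CPM after tunicamycin. Here sample 3 reached the vehicle range. Acacb was at 19.4, 15.2 and 20.7 CPM with vehicle and at 7.97, 11.2 and 13.4 CPM after tunicamycin, again without overlap.

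Srebf1 itself was at 33.0, 33.0 and 34.4 CPM with vehicle, among the narrowest groups of the list, and at 16.1, 21.9 and 30.5 CPM after tunicamycin. Its 3 tunicamycin samples were all below the vehicle samples. Gpam was at 49.6, 55.3 and 52.1 CPM with vehicle and at 30.6, 39.2 and 45.6 CPM after tunicamycin, with no overlap. Elovl6 was at 42.8, 46.2 and 36.3 CPM with vehicle and at 23.6, 20.6 and 50.4 CPM after tunicamycin. In Elovl6 the third tunicamycin sample was the highest of all 6 WT samples. Me1 was at 76.6, 50.3 and 61.5 CPM with vehicle and at 33.9, 20.4 and 52.4 CPM after tunicamycin, and sample 3 lay within the vehicle range.

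**Figure D2:**
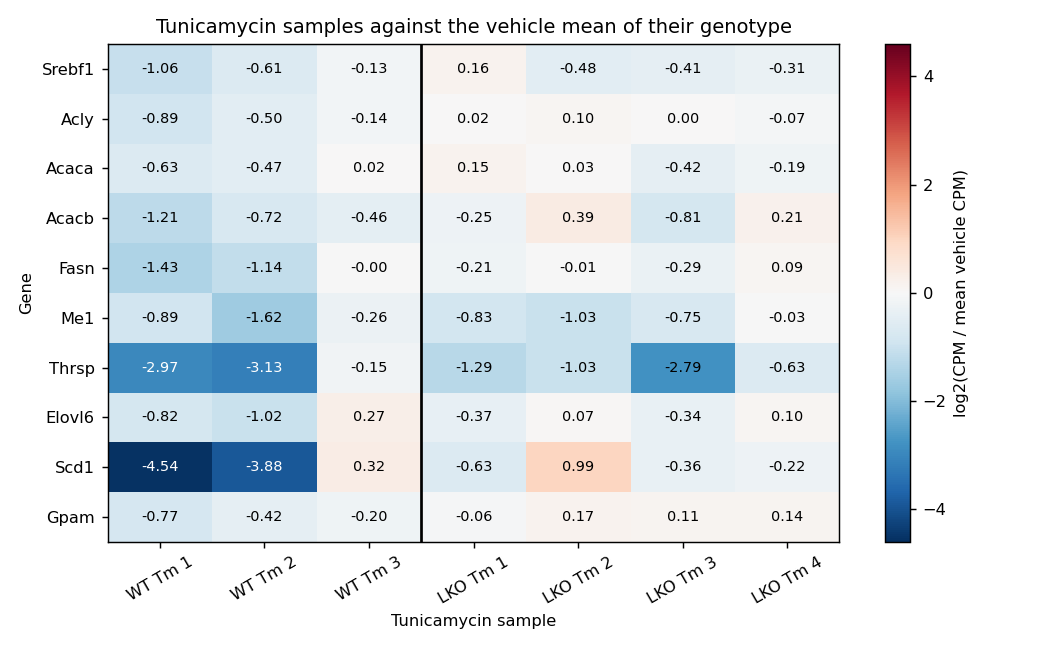
Each tunicamycin sample against the mean vehicle CPM of its genotype, as a log2 ratio (color and printed value), for the 10 genes in rows and the 7 tunicamycin samples in columns. The WT tunicamycin samples 1 and 2 are below 0 for every gene, with −4.54 and −3.88 for Scd1, whereas LKO samples are near 0 for most genes other than Thrsp and Me1.

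In the fit with all samples, no gene of the list was called for tunicamycin against vehicle in WT: 0 of 10 had an adjusted p under 0.05 by edgeR's quasi-likelihood test, against 0.363% of all genes. DESeq2 called 0 of the 9 with an adjusted p. At an unadjusted p under 0.05, 7 of 10 were lower, against 6.86% of all genes lower. All 10 fitted changes were negative, against 48.3% of all genes, with a median of −0.64 on the log2 scale beside 0.01 for all genes. For 4 genes (Srebf1, Acacb, Acly and Gpam) the groups did not overlap, which held for 8.68% of all genes in this direction. The lowest adjusted p values were those of Acly, at −0.48 ± 0.15 (SE; adjusted p = 0.144), and Gpam, at −0.45 ± 0.14 (adjusted p = 0.146). Scd1 had a larger but far less certain estimate of −1.14 ± 0.84 (adjusted p = 0.571). The estimates for Thrsp, Me1, Acacb and Fasn were −1.40 ± 0.60, −0.82 ± 0.35, −0.77 ± 0.27 and −0.72 ± 0.27, and those for Srebf1, Elovl6 and Acaca were −0.56 ± 0.25, −0.41 ± 0.28 and −0.34 ± 0.18. In bulk liver RNA, fewer cells of a type and less RNA per cell cannot be told apart.

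The outcome depended on sample 3. This sample was singled out by its values for these same genes. Calls and p-values without it, here and below, therefore describe that choice and are no independent test. Without sample 3, 6 of 10 genes passed the test, all lower, against 6.19% of 9941 genes called in either direction. Of those 615 calls over all genes, 320 were higher. The 6 genes of the list, all called lower, were Scd1 at −4.18 ± 0.54 (adjusted p = 0.000625), Thrsp at −3.05 ± 0.44 (adjusted p = 0.000978), Fasn at −1.28 ± 0.19 (adjusted p = 0.00106), Acly at −0.69 ± 0.13 (adjusted p = 0.00522), Gpam at −0.59 ± 0.14 (adjusted p = 0.0188) and Elovl6 at −0.92 ± 0.23 (adjusted p = 0.0273). Me1, Srebf1, Acaca and Acacb had adjusted p values of 0.0589, 0.0662, 0.0674 and 0.0679. Without tunicamycin sample 1 or sample 2, 0 of 10 were called, where 0 and 34 of all genes were called. Leaving out each sample in turn, the change of Scd1 ranged from −4.18 to −0.60. That of Thrsp ranged from −3.05 to −0.964 and that of Fasn from −1.28 to −0.461. The lowest value of each came without sample 3. The labels give no reason to leave any of these samples out. WT tunicamycin sample 2 had Ddit3 within the vehicle range but low lipogenic values. Sample 3 had Hspa5 and Ddit3 above vehicle, but most of its lipogenic values were near vehicle. Whether the labels of these samples hold is in doubt and was not tested, so each WT tunicamycin value is that of the library so labelled.

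**Figure D3:**
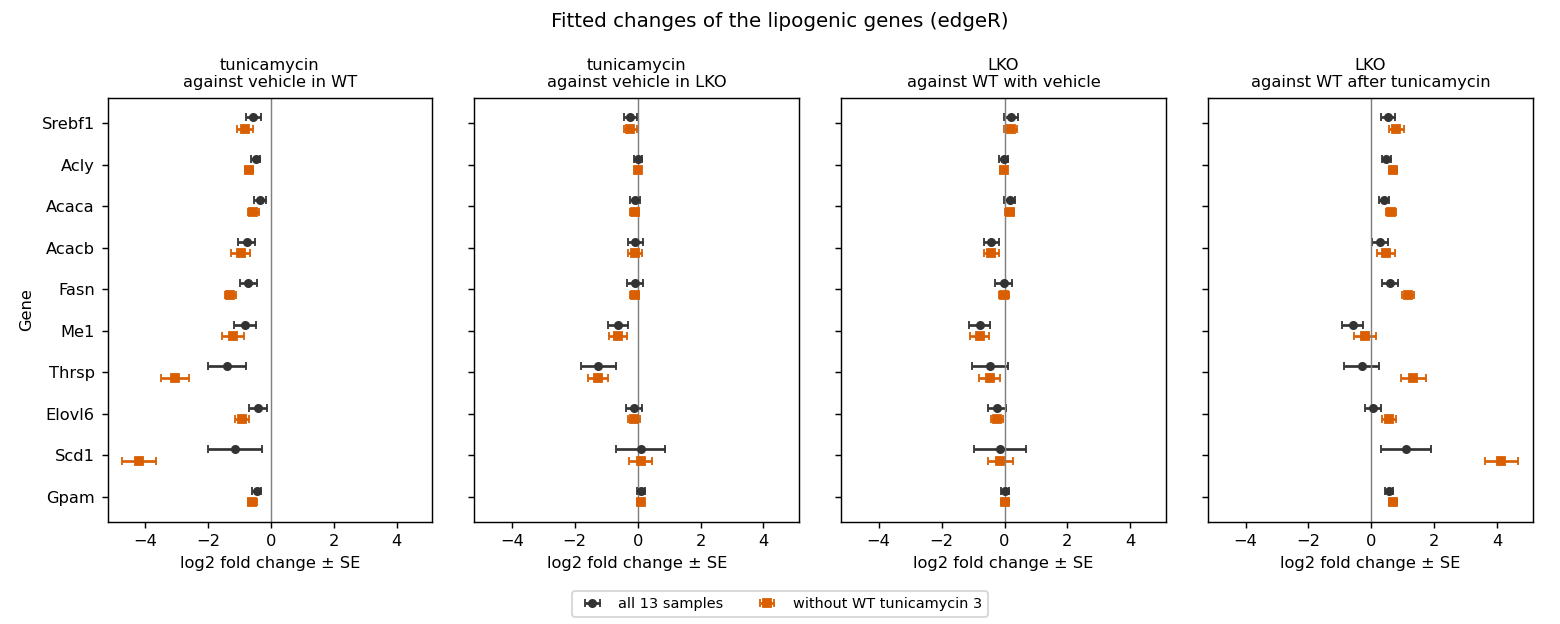
Fitted log2 fold changes with standard errors for the 10 genes in 4 comparisons, from all 13 samples (circles) and without WT tunicamycin sample 3 (squares). Scd1 goes from −1.14 to −4.18 for tunicamycin in WT and from 1.10 to 4.13 for LKO against WT after tunicamycin, while the comparisons without that group keep their estimates.

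In LKO, Thrsp and Me1 had the largest fitted falls after tunicamycin, and only Thrsp was below every vehicle sample in all 4 tunicamycin samples. Thrsp was at 99.8, 96.8 and 155 CPM in the LKO vehicle samples and at 47.9, 57.4, 17.0 and 75.9 CPM in LKO tunicamycin samples 1 to 4. The groups did not overlap for this gene, which held for 6.55% of all genes lower in this comparison. Its fitted change was −1.24 ± 0.55 (adjusted p = 0.371), and it ranged from −1.53 to −0.955 when each sample was left out in turn. Me1 was at 20.5, 31.0 and 56.2 CPM with vehicle and at 20.2, 17.5, 21.3 and 35.2 CPM after tunicamycin, which overlapped. The highest vehicle value was that of the summed libraries 3 and 4. The fitted change of Me1 was −0.62 ± 0.32 (adjusted p = 0.468), and it ranged from −0.885 to −0.134 when each sample was left out in turn.

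Scd1 was at 1772, 765 and 1910.5 CPM with vehicle and at 959, 2946, 1156 and 1272 CPM after tunicamycin in LKO. All 4 tunicamycin samples were above the lowest vehicle sample, and the fitted change was 0.09 ± 0.78 (adjusted p = 0.982). Fasn was at 114, 80.6 and 77.5 CPM with vehicle and at 78.4, 90.3, 74.3 and 96.5 CPM after tunicamycin. Srebf1 was at 52.3, 38.2 and 26.0 CPM with vehicle and at 43.5, 27.8, 29.3 and 31.2 CPM after tunicamycin. Both groups of Srebf1 overlapped, and its change was −0.23 ± 0.22 (adjusted p = 0.741). Acly stayed within 50.9 to 57.6 CPM and Gpam within 50.7 to 59.6 CPM in the LKO tunicamycin samples. Over the list, 0 of 10 genes were called in LKO, against 0.0311% of all genes, and DESeq2 called 0 of the 8 with an adjusted p. At an unadjusted p under 0.05, 1 of 10 (Thrsp) was lower, against 6.33% of all genes. Fitted changes were negative for 7 genes (49.2% of all genes) and positive for Acly, Scd1 and Gpam (50.8% of all genes), with a median of −0.09 beside 0.00 for all genes. Without WT tunicamycin sample 3, which enters this fit through the shared spread, 0 of 10 were called, against 0.674% of all genes.

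Taken one library at a time, the LKO tunicamycin samples did not share one pattern. In samples 1 and 2, 2 genes each (Me1 and Thrsp) were below every LKO vehicle sample, against 30.6% and 28.9% of all genes. In sample 3, 4 genes (Fasn, Acaca, Acacb and Thrsp) were below, against 27.6%. In sample 4, 1 gene (Thrsp) was below, against 26.1%. Thrsp was thus the gene below vehicle in each of the 4 samples, at 40.9%, 49.0%, 14.5% and 64.8% of the LKO vehicle mean. Above every vehicle sample were Acaca in sample 1 (27.9% of all genes), Acacb, Acly, Scd1 and Gpam in sample 2 (27.5%) and Gpam in sample 4 (25.3%). The median level over the 10 genes was 85.3%, 103%, 76.7% and 96.7% of the vehicle mean in samples 1 to 4.

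With vehicle, none of the 10 genes was called for LKO against WT by edgeR (0.0415% of all genes were) or by DESeq2 (0 of 9), and 0 of 10 had groups that did not overlap, against 15.1% of all genes. Fitted differences were positive for 3 genes (50.9% of all genes) and negative for 7 (49.1%). Without WT tunicamycin sample 3, 0 of 10 were called, against 0.171% of all genes. At an unadjusted p under 0.05, 1 of 10 (Me1) was lower, against 3.47% of all genes. Me1 was at 50.3 to 76.6 CPM in WT and at 20.5 to 56.2 CPM in LKO, with a fitted difference of −0.79 ± 0.34 (adjusted p = 0.554). Acacb had a difference of −0.42 ± 0.25 (adjusted p = 0.689) and Thrsp of −0.46 ± 0.58 (adjusted p = 0.882). The differences were −0.02 ± 0.27 for Fasn, −0.02 ± 0.15 for Acly, 0.16 ± 0.17 for Acaca and 0.02 ± 0.14 for Gpam. They were 0.20 ± 0.23 for Srebf1, −0.24 ± 0.27 for Elovl6 and −0.14 ± 0.83 for Scd1, whose SE leaves a wide range.

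After tunicamycin, 8 of 10 genes had a higher fitted level in LKO than in WT, against 48% of all genes, with a median difference of 0.44 beside −0.01. None was called by edgeR (0 of 10, against 0.861% of all genes), and DESeq2 called 1 of 9, Gpam. At an unadjusted p under 0.05, 5 of 10 were higher (Srebf1, Acaca, Acly, Fasn and Gpam), against 7.55% of all genes. The groups did not overlap for Acly and Gpam, higher in LKO, as for 6.34% of all genes in that direction. Gpam had the lowest adjusted p, with a difference of 0.56 ± 0.13 (adjusted p = 0.0565), followed by Acly with 0.48 ± 0.14 (adjusted p = 0.118). Without LKO vehicle 3 and 4, Gpam passed the threshold at 0.55 ± 0.13 (adjusted p = 0.0477). Scd1 had the largest difference, 1.10 ± 0.80 (adjusted p = 0.542). The differences were 0.60 ± 0.26 for Fasn, 0.53 ± 0.23 for Srebf1, 0.41 ± 0.17 for Acaca, 0.28 ± 0.25 for Acacb and 0.05 ± 0.26 for Elovl6. Me1 and Thrsp were the exceptions, with −0.59 ± 0.33 and −0.31 ± 0.56 (52% of all genes had a negative difference). Without WT tunicamycin sample 3, 4 of 10 were called, all higher in LKO, against 0.644% of all genes. They were Scd1 at 4.13 ± 0.53 (adjusted p = 0.00366), Fasn at 1.16 ± 0.18 (adjusted p = 0.0104), Acly at 0.68 ± 0.13 and Gpam at 0.70 ± 0.13 (adjusted p = 0.0207 each), and the Thrsp difference changed sign to 1.34 ± 0.41 (adjusted p = 0.160). Cell markers also differed in this comparison. Kupffer and macrophage markers had a higher fitted level in LKO for 9 of 9 genes, with sums of 60.7 to 76.8 CPM in WT and 65.8 to 129 CPM in LKO tunicamycin samples. Stellate and fibroblast markers were higher for 8 of 8, with sums of 97.8 to 135 CPM in WT and 115 to 177 CPM in LKO, and 0 genes of either list were called. Hepatocyte markers had a lower fitted level for 7 of 9, with sums of 23461 to 33839 CPM in WT and 21348 to 27522 CPM in LKO. Of these Hnf4a, a transcription factor of hepatocyte identity, was called lower at −0.54 ± 0.12 (adjusted p = 0.0405). Their part in the lipogenic differences was not tested.

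The interaction asks whether the tunicamycin change differed between genotypes. No gene of the list was called, and of all 9644 genes 0% were, so this contrast called nothing in either set, and DESeq2 called 0 of 9. At an unadjusted p under 0.05, 2 of 10 were positive (Acly and Gpam), against 2.13% of all genes. Each of the 10 fitted interactions was positive, against 46.6% of all genes, with a median of 0.41 beside −0.02. Values were 1.23 ± 1.15 for Scd1 (adjusted p = 0.986), 0.63 ± 0.37 for Fasn (adjusted p = 0.981), 0.54 ± 0.19 for Gpam and 0.50 ± 0.20 for Acly (adjusted p = 0.937 each). Thrsp and Me1 had interactions of 0.15 ± 0.81 and 0.20 ± 0.47. Without WT tunicamycin sample 3, Scd1 was called at 4.27 ± 0.63 (adjusted p = 0.0364), 1 of the 2 genes called of 9941 (0.0201%).

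Averaged over genotypes, each of the 10 genes had a lower fitted level after tunicamycin, against 48.5% of all genes. None was called (0 of 10, against 4.31% of all genes, and DESeq2 0 of 9), and 6 of 10 had an unadjusted p under 0.05 and were lower, against 9.93% of all genes. Thrsp was at −1.32 ± 0.41 (adjusted p = 0.0716) and Me1 at −0.72 ± 0.24 (adjusted p = 0.0891). Without WT tunicamycin sample 3, 7 of 10 were called lower (Srebf1, Acly, Fasn, Scd1, Elovl6, Thrsp and Me1), against 10.9% of all genes. Averaged over treatments, none was called for LKO against WT (0 of 10, against 2.21% of all genes, and DESeq2 0 of 9). Gpam was at 0.29 ± 0.09 (adjusted p = 0.120) and Me1 at −0.69 ± 0.24 (adjusted p = 0.129). Without LKO vehicle 3 and 4, Me1 was called lower at −0.93 ± 0.21 (adjusted p = 0.0246). At an unadjusted p under 0.05, 4 of 10 were higher (8.98% of all genes) and 1, Me1, was lower (9% of all genes). Fitted differences were positive for 6 genes (49.3% of all genes) and negative for Elovl6, Acacb, Thrsp and Me1 (50.7%). Without WT tunicamycin sample 3, Scd1 was called at 1.99 ± 0.32 (adjusted p = 0.00657) and Fasn at 0.57 ± 0.12 (adjusted p = 0.0269), against 1.69% of all genes.

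The spread within groups differed widely over the list. In WT tunicamycin, the SD of log2 CPM was 2.64 for Scd1, the 6th widest of 9644 genes, and 1.67 for Thrsp, the 38th widest, where the median gene had 0.27. In LKO tunicamycin, Thrsp had an SD of 0.94 and was the 62nd widest. Acly, Gpam and Srebf1 were at the other end in WT vehicle, with SDs of 0.05, 0.08 and 0.03 where the median gene had 0.19. The wide spread was not confined to one treatment for Scd1, whose SD was 0.54, 0.73 and 0.72 in the other groups, where at most 6.73% of genes were as wide.

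**Figure D4:**
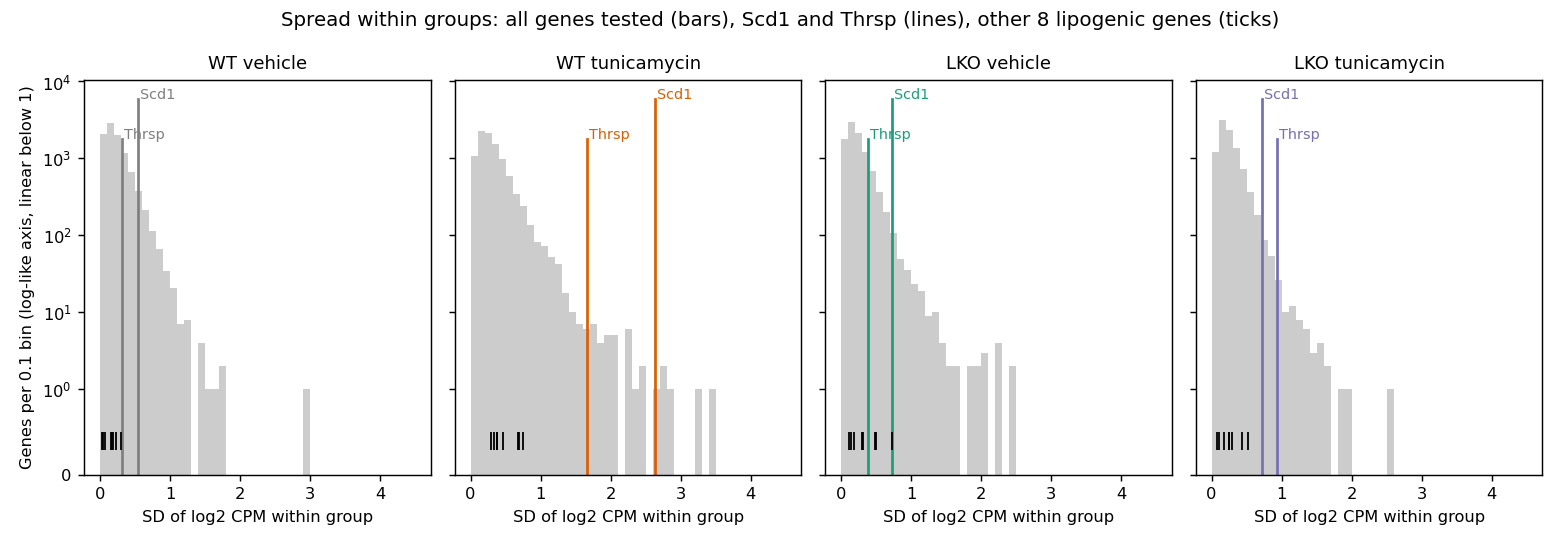
SD of log2 CPM within each group for all genes tested (bars: number of genes per bin of 0.1, on an axis that is linear below 1 and logarithmic above), with Scd1 and Thrsp as lines whose height has no meaning, and the other 8 genes as ticks. Scd1 at 2.64 and Thrsp at 1.67 stand in the far tail of WT tunicamycin.

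The genes varied together across the 13 samples. Of 45 pairs, 8 had a Pearson r of log2 CPM over 0.8, and the median was 0.64. Acly and Gpam were the closest pair, with r = 0.95 and Spearman's rho = 0.77. These values lean on WT tunicamycin samples 1 and 2, the samples farthest from the median of Acly: without them r was 0.70 over 11 samples. For Scd1 and Fasn, r was 0.92 and rho 0.555, and r dropped to 0.34 without those samples, so that this relation rests on them. Srebf1 and Scd1 had r = 0.65 but rho = 0.14. Me1 stood apart: its r with the other 9 genes had a median of 0.17 and ranged from −0.13 with Gpam to 0.68 with Thrsp. After the group means were subtracted the median over pairs was 0.56. The subtraction keeps the split inside WT tunicamycin, and this median was not recomputed without samples 1 and 2. All values share libraries and their scaling, and are given as a description.

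**Figure D5:**
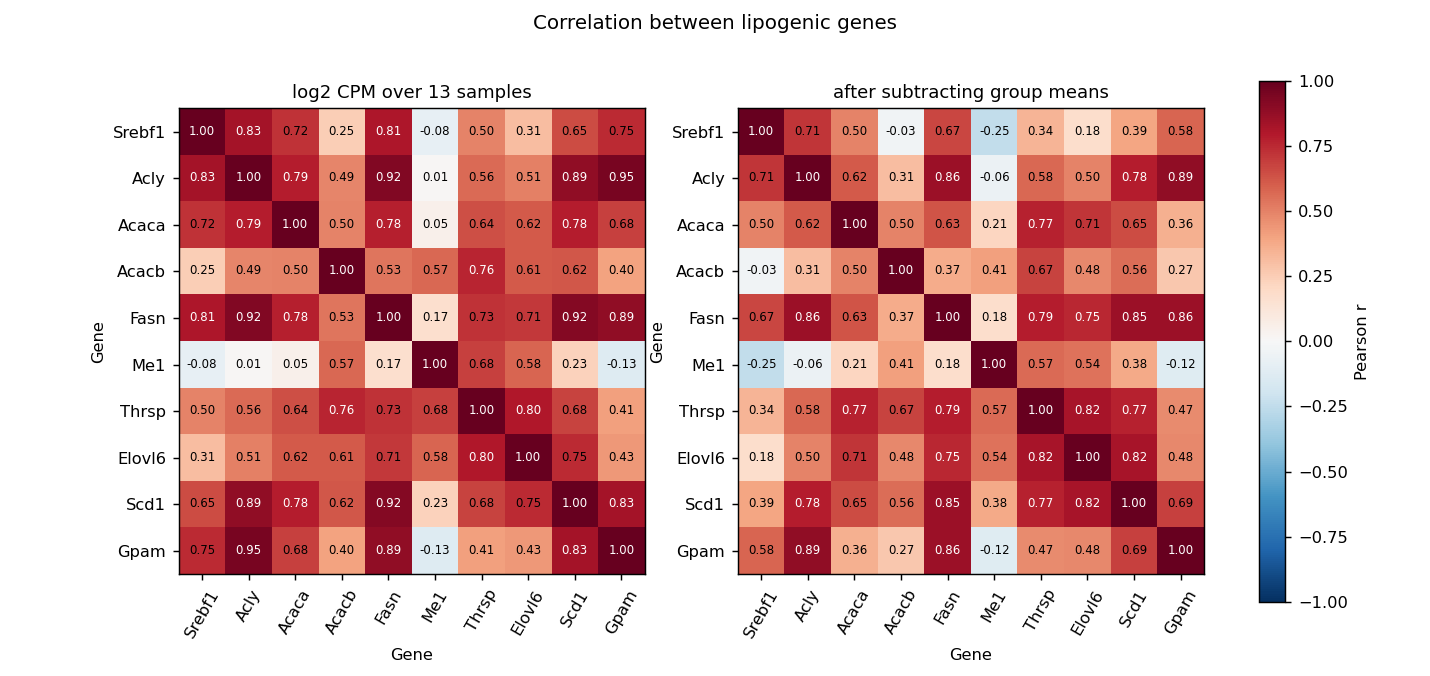
Pearson r between the 10 genes over 13 samples, for log2 CPM (left) and after subtracting group means (right). Most pairs are positive in both panels, and the row of Me1 is the palest, from −0.13 to 0.68 on the left.

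Among 2195 well-expressed genes outside the list, the profiles most like that of Scd1 over 13 samples were those of Fads1, Pcyt2, Elovl5, Agxt2 and Spag9, with r from 0.88 to 0.92. Fads1 encodes a desaturase and Elovl5 an elongase of polyunsaturated fatty acids, and Pcyt2 an enzyme of phosphatidylethanolamine synthesis. Fads1 was at 84.8 to 97.4 CPM in WT vehicle and at 57.6, 68.1 and 102 CPM in WT tunicamycin samples 1 to 3. Without samples 1 and 2 of that group, r with Scd1 was 0.68 for Fads1, 0.64 for Elovl5 and 0.44 for Pcyt2. The profile most like that of Srebf1 was Stard4, a sterol transport protein, with r = 0.90 (rho = 0.90, and 0.78 without the 2 samples farthest from the Srebf1 median), followed by Nfib, Rsrp1, Ttc39c and Fbxo21. Dpp4, Agxt2, Spag9, Pcyt2 and Pank3 were most like the mean of the 10 genes, with r from 0.86 to 0.88. After group means were subtracted, Apoa2, Gstz1, Cox7a2, Mdh1 and Amy1 led for Scd1 (r from 0.93 to 0.94). Apoa2, Mdh1, Sdha, Gstz1 and Atp5g3 led for the mean of the list (0.94 to 0.96). For Srebf1 they were Slc22a30, Stard4, Grb14, Nfib and Rsrp1 (0.83 to 0.92). The subtraction keeps the split inside WT tunicamycin, and these r were not recomputed without its samples 1 and 2.

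Regulators of SREBP-1 and lipogenesis were described with 19 genes. In WT, 0 of 19 were called for tunicamycin, against 0.363% of all genes. The median change was 0.04, beside −0.64 for the lipogenic genes. Mlxipl, the gene of ChREBP, had a change of −0.57 ± 0.17 (adjusted p = 0.129). Insig1, which retains SREBP in the ER and is itself a target of SREBP, was at 66.5 to 88.1 CPM in WT vehicle and at 34.6, 54.6 and 71.2 CPM in WT tunicamycin. For LKO against WT after tunicamycin, 0 of 19 were called higher and 1 lower, against 0.861% of all genes called in either direction. The gene called was Nr0b2, which encodes the repressor SHP, with a difference of −1.51 ± 0.32 (adjusted p = 0.0405). Nr0b2 was at 5.08, 3.40 and 2.77 CPM in WT and at 1.995, 1.17, 1.32 and 0.867 CPM in LKO after tunicamycin, from 8 to 37 reads a sample, so that the groups did not overlap. The call for Nr0b2 was lost in 8 of 25 alternatives, among them those without WT tunicamycin 1, WT vehicle 1 or LKO tunicamycin 2, 3 or 4. Insig1 was higher by 0.75 ± 0.19 (adjusted p = 0.0784) in LKO after tunicamycin.

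Of 18 tested genes of elongation, desaturation and acyl activation, 1 was called for LKO against WT after tunicamycin, against 0.861% of all genes. Scd2, a close paralog of Scd1, was higher in LKO by 1.52 ± 0.29 (adjusted p = 0.0240), and also when averaged over treatments, by 1.28 ± 0.21 (adjusted p = 0.00630). Scd2 was at 1.79, 2.10 and 1.54 CPM in WT tunicamycin and at 3.06, 4.94, 6.92 and 5.64 CPM in LKO tunicamycin samples, from 10 to 68 reads a sample. Scd2 was thus far below Scd1, and reads that match both paralogs are not counted for either, so both levels are uncertain. The call after tunicamycin was lost in 7 of 23 alternatives, among them those without WT tunicamycin 1 or 3 or LKO tunicamycin 3 or 4. Stellate and fibroblast markers moved with genotype in the same direction. Averaged over treatments, 4 of 8 tested (Col1a1, Col3a1, Lum and Pdgfrb) were called higher in LKO, against 2.21% of all genes called in either direction. The summed level of these markers was 70.8 to 135 CPM in WT and 115 to 177 CPM in LKO samples. Their part in the Scd2 difference was not tested.

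Genes of supply, esterification and glycolysis were tested in the average over genotypes, in which 4.31% of all genes were called. Of 13 tested genes of acetyl-CoA, citrate and NADPH supply, 1 was called lower after tunicamycin: Tkt, the transketolase of the pentose phosphate pathway, at −0.42 ± 0.10 (adjusted p = 0.0338). Of 13 of triglyceride synthesis, 2 were called lower. Dgat2, which makes triglyceride from diglyceride, was at −0.34 ± 0.09 (adjusted p = 0.0422), and Agpat6, the file's symbol for the acyltransferase Gpat4, at −0.49 ± 0.11 (adjusted p = 0.0227). Of 12 glycolysis and carbohydrate response genes, 12 had a negative fitted change in WT and in LKO, with medians of −0.39 and −0.32, against 48.3% and 49.2% of all genes with a negative change. In the average, Txnip, a target of ChREBP, was called lower at −0.94 ± 0.25 (adjusted p = 0.0423). Each of these 4 calls (Tkt, Dgat2, Agpat6 and Txnip) was lost in 6 to 13 of 24 alternatives, among them those without WT tunicamycin 1 or 2, WT vehicle 2 or 3, or LKO vehicle 3 and 4.

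Markers of other cells were measured beside the lipogenic genes, since adipose tissue expresses many of them. The adipocyte genes Adipoq, Lep, Plin1 and Cfd had at most 2 reads in any sample and were at 0 in 12 of 13 samples, and Fabp4, also made by endothelium and macrophages, had 8 to 34 reads. Of the 8 adipocyte markers 1 passed the filter, and their sum was 1.28 to 5.74 CPM over all samples. Summed hepatocyte markers were at 23461, 33839 and 24362 CPM in WT tunicamycin samples 1 to 3, and at 23013 to 25733 CPM in WT vehicle. Summed bile duct markers, 6 genes of which 2 passed the filter, moved with the split of the WT tunicamycin group: 42.5, 31.9 and 8.48 CPM in samples 1 to 3, against 8.59 to 11.7 CPM with vehicle. In LKO the sum was 17.6 to 55.3 CPM with vehicle and 36.0 to 111 CPM after tunicamycin. Spp1 made up most of this sum, at 35.6, 25.7 and 5.86 CPM in the WT tunicamycin samples, and was called higher in LKO averaged over treatments, by 1.79 ± 0.39 (adjusted p = 0.0270). Fgb, an acute-phase gene of hepatocytes, was at 3536, 3782 and 1191 CPM in the same samples and at 969.7 to 1355 CPM with vehicle. In LKO, Fgb was at 989 to 1905 CPM with vehicle and at 1982 to 3569 CPM after tunicamycin. LKO vehicle sample 2 had the highest bile duct sum and Fgb of its group and the lowest Scd1, 765 CPM. The same held for LKO tunicamycin sample 1, with Scd1 at 959 CPM. LKO tunicamycin sample 2 had the highest Scd1, 2946 CPM, with a bile duct sum of 60.5 CPM and Fgb at 3329 CPM. No LKO sample had Scd1 as low as WT tunicamycin samples 1 and 2. The part of these differences in the lipogenic values was not tested.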

How the data were processed

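RNA from liver was measured in 14 libraries. The deposited gene counts hold unnormalized reads in the layout of STAR's count output, per the file headers. The submitters' processing notes list STAR, Trimmomatic, Cufflinks and mm10, with no versions. The authors' deposited FPKM table was used for levels between genes and for alternatives. The sense-strand column was used (99.5 to 99.6% of stranded reads). Reads that name no gene, left out, were 25.4 to 34.9% unmapped, 7.96 to 9.16% multimapping and 25.1 to 28.5% on no feature. LKO vehicle libraries 3 and 4 gave a chi-square of 1.12 per degree of freedom, the 17 other pairs 3.38 to 25.9, and were summed. Counts of 9644 genes passing filterByExpr were fitted with edgeR 4.0.16 (R 4.3.3; TMM, quasi-likelihood, 1 mean per group, 9 residual degrees of freedom), with Benjamini-Hochberg adjustment over all genes and a call at 0.05. Log2 CPM used a prior count of 2. DESeq2 1.42.0, limma 3.58.1 on log2 FPKM and other alternatives were run, and the fit was tested on simulated data. The list, gene groups and tests were chosen with earlier results of these data known. Named genes are the 10, every called gene of another list of the pathway, otherwise those with the largest change of each list, and the 5 profiles most like the list, Scd1 and Srebf1. Hspa5, Ddit3, Fgb and Spp1 values beside the list were chosen after they were seen. Gene positions are from GENCODE vM21. Some genes that the rule names are not reported here.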

Additional observations from a re-analysis of the deposited data

Results flagged for a closer look

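Scd1 in LKO tunicamycin sample 2 was at 2945.6 CPM, against 959 to 1272 CPM in the other 3 samples of its group, and its gap to them exceeded Dixon's critical value of 0.829 for 4 samples. It was the only such value among the 10 groups of 4 samples examined, 1 per gene, and chance flags about 1 in 20. The same sample was above every LKO vehicle sample for Acacb, Acly, Scd1 and Gpam. Groups of 3, which include WT tunicamycin, were not examined by this rule, so the lack of a flag there says nothing about WT tunicamycin sample 3.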

How the results depend on the processing

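The 33 fold changes reported for the 10 genes were recomputed under 25 alternatives, which gave 812 values. Of these, 762 kept direction and side of the threshold, 41 passed it and 9 changed sign; none of the 33 was called to begin with, so no call could be lost. The sign changed for Elovl6 in LKO against WT after tunicamycin without WT tunicamycin 1 (−0.13) or 2 (−0.18) or LKO tunicamycin 2 (−0.01) or 4 (−0.03), with a range of −0.177 to 0.554 leaving out each replicate. It changed for Thrsp in that comparison with FPKM (0.21 with a pseudocount of 1, with or without a filter, 0.26 with 0.1) and without WT tunicamycin 3 (−0.741 to 1.34 leaving out each replicate), and for Srebf1 in LKO without LKO vehicle 1 (0.0375), where the lowest values were −0.456 without LKO vehicle 3 and 4 and −0.386 without LKO tunicamycin 1. The causes were not tested.

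Counts of the 10 genes called, 0 in each comparison, became for tunicamycin in WT 2 by total count scaling and 3 with no filter on low counts (0 to 6 leaving out each replicate), and in LKO 1 with no filter. For LKO against WT after tunicamycin they became 1 with 14 libraries, DESeq2 or no filter, and 2 by total count or filtered FPKM (0 to 4 leaving out each replicate). The interaction gave 0 to 1 leaving out each replicate. Averaged over treatments, 1 was called with no filter, filtered FPKM + 1 or the replicate block (0 to 2 leaving out each replicate). Averaged over genotypes, 2 were called with 14 libraries, no filter or filtered FPKM, 3 by total count and 1 with the replicate block (0 to 7 leaving out each replicate). Among the runs that left out a replicate, counts other than 0 came without WT tunicamycin 3 or without LKO vehicle 3 and 4, where Gpam after tunicamycin (0.55, adjusted p = 0.0477 by edgeR) and Me1 averaged over treatments (−0.93, adjusted p = 0.0246) were called. Over all genes, calls ranged from 0 to 289 in WT (35 as reported), 0 to 153 in LKO (3), 0 to 84 with vehicle (4), 7 to 261 after tunicamycin (83), 43 to 514 (213) and 19 to 810 (416) in the averages over treatments and genotypes with all samples kept, and up to 615 in WT without WT tunicamycin 3. Total count scaling moved the median gene by −0.19 in WT and 0.15 after tunicamycin; 33 of 148 and 142 of 164 calls were then higher, and 153 of 810 in the average over genotypes.

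Replicate numbers did not pair the samples: 5 of 18 same-numbered pairs correlated over 0.1 (−0.31 to 0.48) and 5 of 13 samples correlated best with their own number. The replicate block called Me1 in both averages. Samples of 3 or 4 a group limit what can be called, and reads carry no molecular identifiers.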

Other observations

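Genes of lipid storage and of the fed or fasted state were also measured. Of 14 tested lipid droplet and lipolysis genes, 12 had a negative fitted change after tunicamycin in WT and 12 in LKO, with medians of −0.23 and −0.35 on the log2 scale, against 48.3% and 49.2% of all genes with a negative change. By edgeR 0 were called in either, against 0.363% and 0.0311% of all genes. At an unadjusted p under 0.05, 1 of 14 was lower in WT, against 6.86% of all genes. In LKO, 4 of 14 were lower, against 6.33% of all genes, and 1 was higher. In LKO, Plin5, a droplet protein of oxidative tissues, was at −1.03 ± 0.40 (adjusted p = 0.328) and Plin3 at 0.62 ± 0.18 (adjusted p = 0.228). Of 10 tested genes of the feeding and fasting state, 0 were called in any of the 7 comparisons, against 0% to 4.31% of all genes. Igfbp1, a secreted protein that insulin represses, had the largest change in WT, 1.44 ± 0.72 (adjusted p = 0.359).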
